A study of Homo sapiens with 2 samples.

Results

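Mirtrons are microRNAs (miRNAs) cut from very short introns. The 5 hairpins described here, miR-877, miR-1224, miR-1225, miR-1226 and miR-1228, are among the first mirtrons recognised in mammals. Their 10 mature arms were taken by name from the scanner output of a 1-colour miRNA array, which holds 2565 miRNA probes with 1 spot each, and the rule uses no measured value. All 10 names were found. The name miR-1227 falls within the same run of numbers, is not among the 10 and is treated below with 5 further mirtron hairpins.

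The arrays were hybridised with RNA from exosomes, small vesicles released by cells, of HuH-7, an established human hepatocellular carcinoma line. There were 2 samples, the exosomes of a culture labelled HuH-7-P and those of a culture labelled HuH-7-M, with 1 array each. The letters P and M are not explained in the labels, which state no other treatment, clone or genotype. The series title speaks of cell lines that metastasise strongly within the liver, and the comparison asks which vesicle miRNAs differ between the cultures. Both cultures grew in the same medium with 10% fetal bovine serum, and vesicles were pelleted by ultracentrifugation after a change of medium. The extraction protocol of the labels speaks of cells, although the samples are named as exosomes. With 1 array per culture no difference below has a replicate, no p-value could be computed, and a difference between cultures cannot be told apart from one between preparations, labelling reactions or arrays. In a pellet of vesicles, fewer vesicles and less of an RNA per vesicle cannot be told apart either.

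Most miRNAs are released from a long primary transcript by the nuclear enzyme Drosha and then trimmed by Dicer in the cytoplasm. In the route that defines mirtrons the Drosha step is skipped. The spliceosome cuts the whole intron out, the lariat is opened by the debranching enzyme, and the freed intron folds into a hairpin that Dicer can use. Whether each of the 5 hairpins here is made by this route was not tested. The ends of such a hairpin are therefore splice sites, GU at the start of the intron and AG at its end. The 5p arm lies next to the 5′ splice site, and the 3p arm includes the pyrimidine-rich tract that precedes the 3′ splice site.

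RefSeq entries (GRCh38.p14) matched all 5 hairpins and all 10 arms. The hairpins are shown because their ends carry the letters of splice sites, GU and AG. The arms are in capitals and the loop between them is in lower case.

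miR-877, chr6:30584332-30584417, plus strand: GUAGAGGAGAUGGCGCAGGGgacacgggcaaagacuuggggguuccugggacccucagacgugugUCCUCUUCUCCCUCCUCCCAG
miR-1224, chr3:184241405-184241489, plus strand: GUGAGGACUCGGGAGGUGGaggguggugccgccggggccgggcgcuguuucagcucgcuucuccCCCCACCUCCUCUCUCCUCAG
miR-1225, chr16:2090195-2090284, minus strand: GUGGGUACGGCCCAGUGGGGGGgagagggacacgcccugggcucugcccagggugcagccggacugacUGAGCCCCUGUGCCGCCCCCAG
miR-1226, chr3:47849555-47849629, plus strand: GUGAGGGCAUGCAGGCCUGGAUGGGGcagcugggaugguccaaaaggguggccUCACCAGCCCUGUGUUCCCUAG
miR-1228, chr12:57194504-57194576, plus strand: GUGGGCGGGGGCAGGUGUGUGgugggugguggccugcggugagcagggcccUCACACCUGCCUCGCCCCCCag

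Each of the 5 hairpins begins with GU and ends with AG. Among all 1560 RefSeq miRNA hairpins, 36 (2.31%) do so. The 5p arm starts at the first base of the hairpin in 5 of 5, and the 3p arm ends at its last base in 4 of 5. The exception is miR-1228-3p, which stops 2 bases short of the hairpin's end, so that the final AG is not part of the mature miRNA. The hairpins are 73 to 90 bases long, 62.8% to 75.3% of their bases are G or C, and the minimum free energy predicted for each fold was -35.4 kcal/mol for miR-1226, the weakest, to -50.1 kcal/mol for miR-1225, the strongest. Per base this is -0.46 for miR-877 to -0.61 kcal/mol for miR-1228, against a median of -0.45 over all RefSeq hairpins.

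Every hairpin lies inside the span of 1 protein-coding gene. miR-877 lies in ABCF1, an ATP-binding protein that takes part in the start of translation, and miR-1224 in VWA5B2. miR-1225 lies in PKD1, which encodes polycystin-1 and is mutated in polycystic kidney disease. miR-1226 lies in DHX30, an RNA helicase of mitochondria, and miR-1228 in LRP1, a receptor for lipoproteins that is abundant in liver. The annotation used here gives gene spans only, and exon and intron borders were not analysed here.

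The mature arms are shown with the seed, bases 2 to 8, in capitals, since the seed is the stretch that pairs with target mRNAs.

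hsa-miR-877-5p: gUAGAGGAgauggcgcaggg
hsa-miR-877-3p: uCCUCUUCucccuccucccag
hsa-miR-1224-5p: gUGAGGACucgggaggugg
hsa-miR-1224-3p: cCCCACCUccucucuccucag
hsa-miR-1225-5p: gUGGGUACggcccagugggggg
hsa-miR-1225-3p: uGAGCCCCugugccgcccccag
hsa-miR-1226-5p: gUGAGGGCaugcaggccuggaugggg
hsa-miR-1226-3p: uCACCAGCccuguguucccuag
hsa-miR-1228-5p: gUGGGCGGgggcaggugugug
hsa-miR-1228-3p: uCACACCUgccucgcccccc

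No seed is shared between any of these 10, nor with any of the other array miRNAs for which RefSeq gave a sequence (2253 probes in all). The 5p arms hold 53.8% to 66.7% G and all 5 begin with GU. Of the array's miRNAs with a sequence 3.51% do so, and of those named -5p 5.76%. The 3p arms hold 40.9% to 65.0% C, and 4 of 5 end with AG. AG ends 12.5% of the array's miRNAs with a sequence and 23.3% of those named -3p. It ends 77.2% of the 3p arms of miR-6726 to miR-6895, treated below. Each of the 5 hairpins thus pairs a G-rich 5p arm with a C-rich 3p arm. miR-1228-5p holds the largest share of G (66.7%) and miR-1225-5p the longest run of it (6 bases). miR-1225-3p differs from the other 3p arms in holding 27.3% G, against 4.76% in miR-877-3p and in miR-1224-3p, 10.0% in miR-1228-3p and 18.2% in miR-1226-3p.

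Signals are spot median intensities in arbitrary units. Spots labelled BLANK averaged 59.7 ± 1.64 (HuH-7-P) against 58.7 ± 1.63 (HuH-7-M), with the SD over 320 spots of 1 array. A miRNA was counted as above background where it exceeded the mean plus 2 SD of these spots (their top and bottom 5% left out), a limit of 62.3 on HuH-7-P against 61.2 on HuH-7-M. Spots labelled No Probe were brighter, with means of 79.8 ± 7.20 and 81.1 ± 5.73 (SD over 85 spots), and gave stricter limits of 86.9 and 89.9. All 85 No Probe spots exceeded the BLANK limit on each array, so passing that limit alone does not show that a miRNA was detected. The hepatocyte miRNA miR-122-5p, used to check the labelled cell type, read 99.7 on HuH-7-P against 126.5 on HuH-7-M. Of 6 hepatocyte miRNAs 5 passed the BLANK limit on both arrays and 2 the No Probe limit. All 4 of 4 blood miRNAs and 1 of 4 endothelial or stromal miRNAs passed the BLANK limit on both arrays, and none of either list the No Probe limit on both. The blood miRNAs ranged from 66.3 to 90.3 on HuH-7-P and from 62.8 to 87.2 on HuH-7-M. The summed BLANK-subtracted signal of the hepatocyte list was 116 on HuH-7-P against 153 on HuH-7-M, that of the blood list 57.6 and 51.4, and that of the endothelial and stromal list 13.8 and 16.4, whose marker miR-126-3p lay below the BLANK limit at 57.3 and 57.6. The part of any such cells in the values below was not tested.

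All 10 mirtron arms exceeded the BLANK limit on both arrays, where 62.1% of all miRNA probes did, and 9 of 10 exceeded the No Probe limit on both, where 30.8% did. The BLANK limit was also passed by all 85 No Probe spots of each array. The median signals of the 10 mirtron arms were 158 (HuH-7-P) and 173 (HuH-7-M), where those of all miRNA probes were 70.6 and 69.5. The arm that missed the stricter limit is miR-1226-3p.

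**Figure D1:**
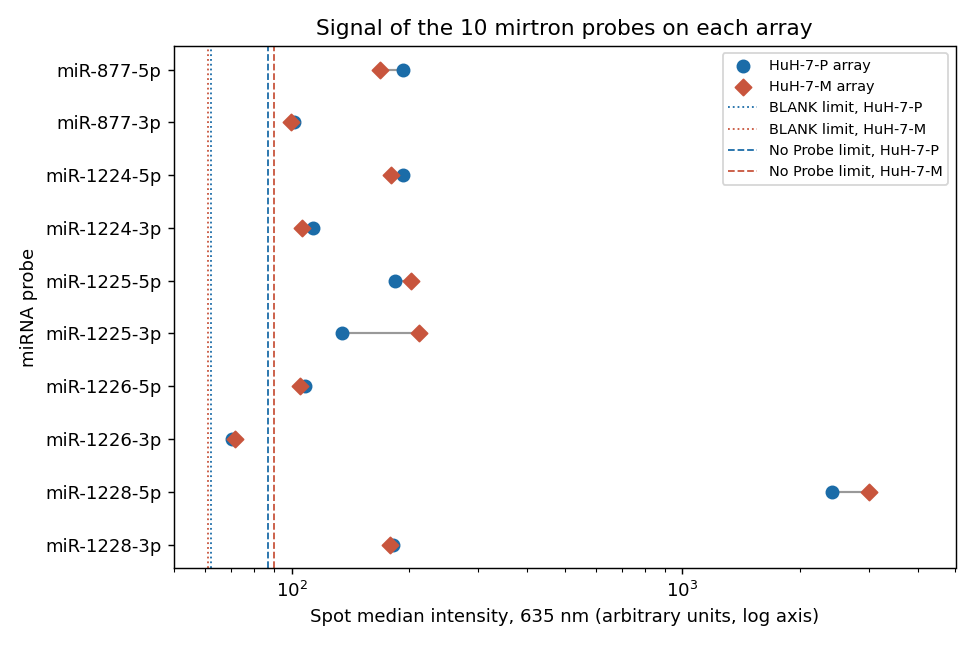
Spot median intensity (log axis) of each of the 10 arms for HuH-7-P (circles) and for HuH-7-M (diamonds), with dotted lines at the BLANK limits and dashed lines at the No Probe limits. miR-1228-5p stands alone at 2414 and 2997, miR-1226-3p lies between the limits at 70.2 and 71.6, and miR-1225-3p shows the widest gap on this axis, 134 and 212.

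miR-1228-5p was the brightest of the 10 and read 2414 on HuH-7-P against 2997 on HuH-7-M. It ranked 33rd and 39th among the 2565 probes, brighter than 98.7% and 98.5% of them. Its partner miR-1228-3p, which has been proposed as a reference miRNA for blood samples, read 182 on HuH-7-P against 179 on HuH-7-M.

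The arms of miR-877 read 193 on HuH-7-P against 168 on HuH-7-M for the 5p probe, and 102 and 99.3 for the 3p probe. Those of miR-1224 read much alike, at 193 and 180 for the 5p probe and 114 and 106 for the 3p probe. In both hairpins each arm was slightly brighter on HuH-7-P.

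miR-1225-5p read 184 on HuH-7-P against 202 on HuH-7-M. miR-1225-3p read 134 on HuH-7-P against 212 on HuH-7-M, and moved from rank 500 to rank 336 among all probes. It is the only 3p arm that was the brighter of its pair on either array.

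miR-1226-5p read 108 on HuH-7-P against 105 on HuH-7-M. miR-1226-3p read 70.2 and 71.6, below the No Probe mean of either array, so its signal was no higher than that of spots named as carrying no probe.

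A difference between the arrays is given on the log2 scale as HuH-7-M less HuH-7-P. The signal first had the BLANK mean taken off, and each array was then scaled to the median of the 1593 miRNAs above the BLANK limit on both arrays. The error beside it is the SD expected from single spots, which was drawn from the spread of 7 repeated control probes with 8 spots each (a relative SD of 10.3%) and from the BLANK spots. It covers variation within an array only. The relative SD of single control probes ran from 0.05 (Spike Control 2 on HuH-7-P) to 0.24 (S-Probe21 on HuH-7-M). Over all 1593 miRNAs the median difference was 0.02, with quartiles of -0.24 and 0.31, and 47.2% of them differed by more than their single-spot SD.

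Of the 10 arms 1 was higher by 2-fold or more in the HuH-7-M exosomes, miR-1225-3p, and none was at least 2-fold lower. Over all 1593 miRNAs 3.70% were at least 2-fold higher, 4.33% at least 2-fold lower and 8.04% past 2-fold in either direction. A single arm among 10 is near that background. The difference of miR-1225-3p was 1.06 ± 0.21 (2.08-fold), less than 1 such SD past the 2-fold line, and 7.22% of the measured miRNAs had a larger one in size. In the authors' deposited table its values were 61.2 and 129, in that order of cultures, a log2 difference of 1.07.

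The other 9 arms lay within 2-fold. Above 0 were miR-1228-5p (0.34 ± 0.21), miR-1226-3p (0.32 ± 0.36) and miR-1225-5p (0.22 ± 0.21). Below 0 were miR-877-5p (-0.27 ± 0.21), miR-1224-3p (-0.16 ± 0.22), miR-1224-5p (-0.12 ± 0.21), miR-1226-5p (-0.04 ± 0.22), miR-877-3p (-0.02 ± 0.23) and miR-1228-3p (-0.01 ± 0.21). With miR-1225-3p, 4 of 10 were above 0, where 52.7% of all measured miRNAs were, and the median of the 10 was -0.02, against 0.02 over all. Beyond their single-spot SD lay 4 of the 10 arms, miR-1225-3p, miR-1228-5p, miR-877-5p and, narrowly, miR-1225-5p, where 47.2% of all measured miRNAs did. miR-1228-3p differed least, and 98.2% of all measured miRNAs had a larger difference in size.

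**Figure D2:**
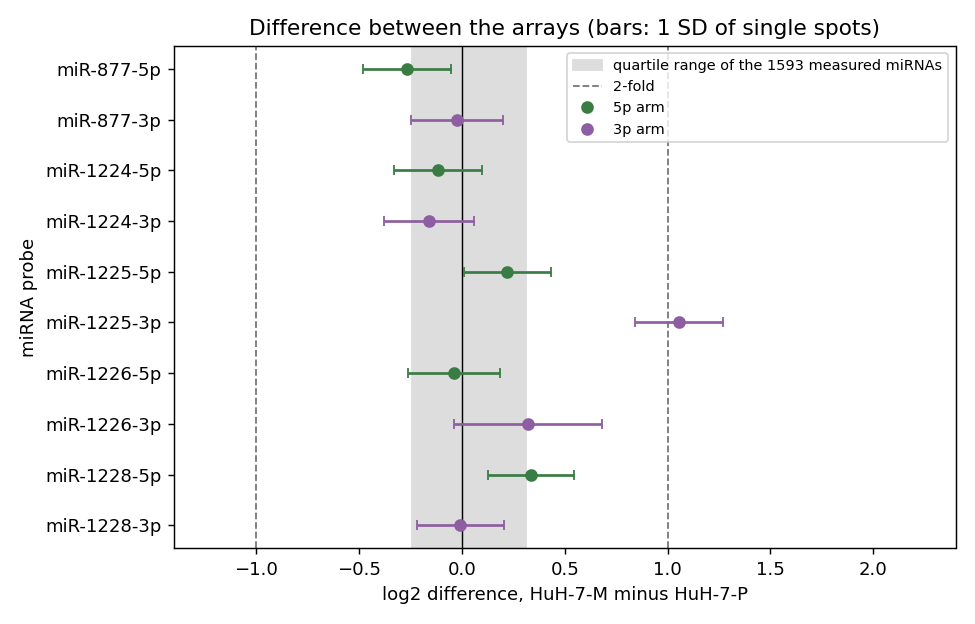
The difference of each arm on the log2 scale, HuH-7-M less HuH-7-P, with bars of 1 single-spot SD, green for 5p and purple for 3p arms. The grey band spans the quartiles of all 1593 measured miRNAs (-0.24 to 0.31) and the dashed lines mark 2-fold; miR-1225-3p at 1.06 is the arm past a dashed line, and the other 9 lie from -0.27 to 0.34.

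The direction of several arms depended on how the arrays were scaled. miR-1228-5p was 0.34 after scaling to the median, but -0.25 after quantile normalization, -0.27 after cyclic loess and -0.30 on the scale of the Spike Control spots. The Spike Control spots were themselves brighter on HuH-7-M, by 0.51 and 0.66 (log2). Of the other repeated control probes, S-Probe26 averaged 1607 on HuH-7-P against 3074 on HuH-7-M after BLANK subtraction. S-Probe27 averaged 391 and 795, and S-Probe28 12513 and 24961, in the same order. S-Probe21 (225 and 262) and S-Probe24 (176 and 172) changed less. Scaling to the Spike Control spots put the median over the measured miRNAs at -0.61. On that scale miR-1225-3p remained above 0, at 0.42, and the other 9 lay below 0. miR-1225-5p, at -0.41, and miR-1226-3p, at -0.31, also changed sign there, and both stood above that median. miR-1225-3p stayed above 0 under all 13 alternatives, from 0.42 to 1.09, while miR-877-5p, miR-1224-5p and miR-1224-3p stayed below 0 under all of them.

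miR-1225-3p fell short of 2-fold wherever a constant was left in or added to the signal. It was 0.68 without background correction, 0.91 with 16 added after subtraction, and 0.72 with the normexp correction, an offset of 50 and quantile normalization. Over all miRNAs, the split of 59 higher and 69 lower became 7 and 27 with that last setting, 44 and 80 after cyclic loess, 8 and 278 on the Spike Control scale, and, over the 949 miRNAs that still gave a value on both arrays, 39 and 140 with the mean of the No Probe spots subtracted in place of BLANK.

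**Figure D3:**
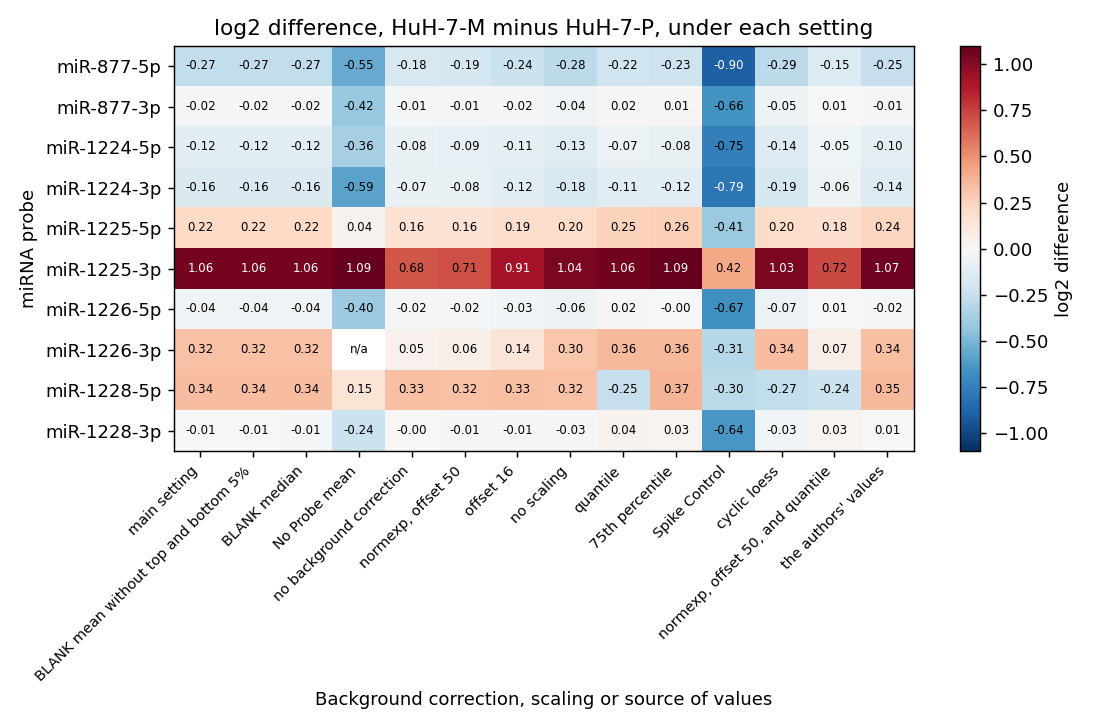
The log2 difference of each arm (rows) under the main setting and each alternative background correction, scaling or source of values (columns), red where higher and blue where lower on the HuH-7-M array; n/a marks miR-1226-3p, whose signal lies below the No Probe mean. The row of miR-1225-3p is red throughout (0.42 to 1.09), and that of miR-1228-5p turns blue under 4 settings.

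Within a mirtron the arms come from 1 intron, so each hairpin offers a pair of readings. Probes of different sequence bind with different strength, and a brighter probe does not mean a more abundant arm. With that limit, the 5p probe was the brighter of the pair in 5 of 5 hairpins on HuH-7-P and in 4 of 5 on HuH-7-M. In miR-1225 the order turned, from 184 against 134 on HuH-7-P to 202 against 212 on HuH-7-M (5p against 3p), the latter gap being smaller than the single-spot SD of 10.3%. Over the 397 hairpins with both arms above the BLANK limit on both arrays, the 5p probe was brighter in 70.3% on each array. The 5p probe was brighter on both arrays in 66.8%, and the order turned in 7.05%. Among the 129 hairpins with all spots above the stricter No Probe limit, the 5p share was 82.2% and 80.6%, in the same order of arrays. The order turned in 10.9% of these 129, which include all of the 5 mirtrons except miR-1226.

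The arm shift, the log2 difference of the 5p probe minus that of the 3p probe, leaves out any single scaling factor per array. Probe strength drops out of the arm shift only as far as the subtracted background is right and the signal is proportional to the amount of RNA. A positive shift means that the 5p probe was relatively higher on HuH-7-M. It was -0.84 ± 0.30 for miR-1225, -0.36 ± 0.42 for miR-1226, -0.24 ± 0.31 for miR-877, 0.04 ± 0.31 for miR-1224 and 0.35 ± 0.30 for miR-1228 (single-spot SD of the 4 spots). The shift of miR-1225 was over 2 such SDs from 0, and that of miR-1228 just over 1. None of the 5 reached 1 in size, which 12.6% of the 397 hairpins did, and 76 of the 397 (19.1%) had a larger shift in size than miR-1225. The quartiles of all hairpins lay between -0.33 and 0.37, so that 3 of the 5 mirtrons fell between them, with miR-1226 just beyond the lower one and miR-1225 further out.

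**Figure D4:**
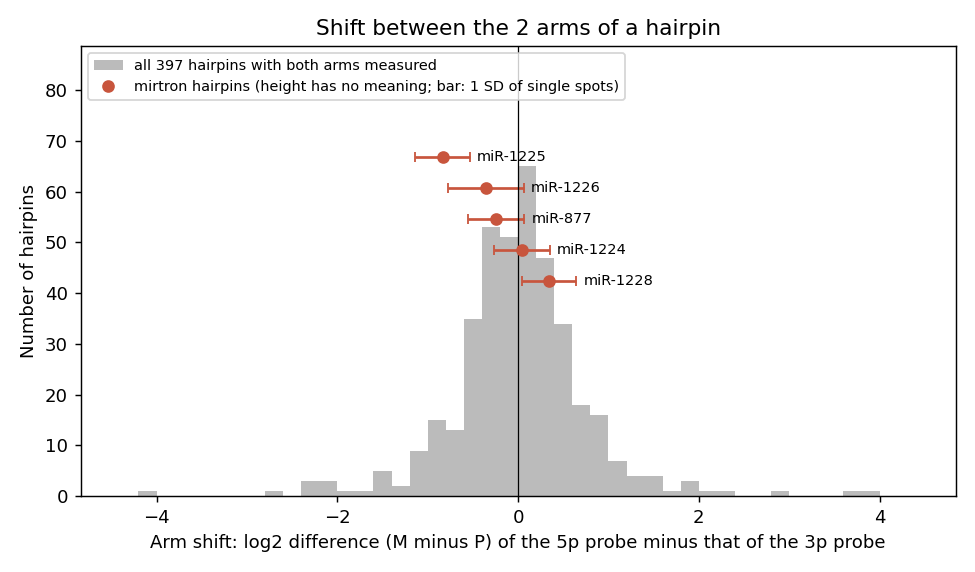
Arm shift of the 397 hairpins with both arms measured (grey histogram, number of hairpins per bin of 0.2) with the 5 mirtrons as points and bars of 1 single-spot SD, whose height carries no meaning. miR-1225 lies lowest at -0.84 and miR-1228 highest at 0.35, all 5 within the bulk of the histogram.

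For miR-1228 the direction of the arm shift rested on scaling that treats bright and dim probes alike. Quantile normalization, which moves bright probes relative to dim ones, gave -0.29 and cyclic loess -0.24. For miR-1225 the shift was negative under each alternative tried, from -1.05 to -0.52. The outermost arm shifts among hairpins with all spots above the No Probe limit belonged to other miRNAs. On the negative side they were miR-4685 (-2.25), miR-4700 (-2.04) and miR-4800 (-2.02), and on the positive side miR-4697 (2.87), miR-7114 (2.26) and miR-3162 (2.16).

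A list of further miRNAs reported as mirtrons held both arms of miR-1227, miR-1229, miR-1233, miR-1236, miR-1237 and miR-1238, whose 6 hairpins all begin with GU and end with AG. Of their mature 5p arms 3 of 6 begin with GU, against 5 of 5 above, and 5 of 6 3p arms end with AG. On both arrays all 12 arms passed the BLANK limit and 10 the No Probe limit, the exceptions being miR-1227-3p and miR-1233-3p. The 5p probe was brighter in 6 of 6 hairpins on both arrays. Their brightest arm, miR-1237-5p, read 3390 on HuH-7-P against 4416 on HuH-7-M, and so exceeded miR-1228-5p in signal. It was followed by miR-1233-5p (1134 and 1311), miR-1227-5p (628 and 795), miR-1238-5p (480 and 366) and miR-1229-5p (432 and 367). Of the 12 arms 1 was past 2-fold, miR-1236-5p, which was lower on HuH-7-M at 94.3 against 132 (-1.001 ± 0.22). Its arm shift of -0.91 ± 0.32 and that of miR-1229 (-0.81 ± 0.30) were near that of miR-1225 in size. The remaining arms above the No Probe limit differed by -0.44 (miR-1238-5p) to 0.56 (miR-1229-3p).

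The miRNAs numbered miR-6726 to miR-6895, many of which were annotated as mirtrons later, were compared by arm. Their 5p probes had medians of 217 on HuH-7-P against 221 on HuH-7-M over 163 miRNAs, and their 3p probes 85.0 and 83.3 over 164. The corresponding medians of the earlier mirtrons were 193 and 180 for 5 arms and 114 and 106 for 5 arms. The No Probe limit was passed on both arrays by 79.1% of the later 5p arms and 38.4% of the later 3p arms, against 5 of 5 and 4 of 5. The 5p probe was brighter on HuH-7-P in 120 of 138 such hairpins with both arms measured (87.0%), against 70.3% of all 397 hairpins. Of the later 5p arms 3 were at least 2-fold higher and 2 lower, and of the 3p arms 1 was higher and none lower. Their brightest 5p arms were miR-6727-5p (2537 and 4472), miR-6729-5p (2151 and 4643) and miR-6879-5p (2146 and 3728), with differences of 0.85, 1.15 and 0.83 against 0.34 for the similarly bright miR-1228-5p. Their brightest 3p arms were miR-6765-3p (3819 and 2966), miR-6872-3p (849 and 705) and miR-6840-3p (304 and 327). Only 14 of 140 hairpins with these numbers (10.0%) begin with GU and end with AG in RefSeq, whose hairpin entries need not stop at an intron's ends.

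Brightness on these arrays went with the share of G in the miRNA. Over miRNAs with a sequence, the median of the mean signal over both arrays (geometric mean) was 62.6 where under 20% of bases were G (676 miRNAs), 60.9 from 20% to 30%, 72.3 from 30% to 40%, 129 from 40% to 50%, and 448 where 50% or more were (234 miRNAs). The No Probe limit was passed on both arrays by 17.5% of the lowest class, 9.12% of the next and 97.9% of the highest. The 5 mirtron 5p arms all fall into the highest class. Within it, 4 of the 5 were on the dim side. miR-1226-5p was brighter than 3.85% of the class, miR-877-5p than 19.7%, miR-1224-5p than 20.9% and miR-1225-5p than 22.6%, while miR-1228-5p was brighter than 90.2%. The 3p arms showed the reverse. Within classes of low G content, miR-1228-3p was brighter than 97.5%, miR-1225-3p than 97.1%, miR-1224-3p than 92.5%, miR-877-3p than 88.6% and miR-1226-3p than 63.2%. These classes are matched on G and not on C. The mirtron 3p arms hold a median of 57.1% C, against 22.7% over all miRNAs with a sequence. The 3p arms of miR-6726 to miR-6895, with medians of 14.3% G and 45.5% C, had a median signal of 84.3. The highest G class had a median difference between the arrays of 0.16 (quartiles -0.09 and 0.55). miR-1228-5p, miR-1225-5p and miR-1226-5p lay within those quartiles and miR-877-5p (-0.27) and miR-1224-5p (-0.12) below them. Whether G or C content, through the binding of probe or dye, takes part in these signals was not tested.

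**Figure D5:**
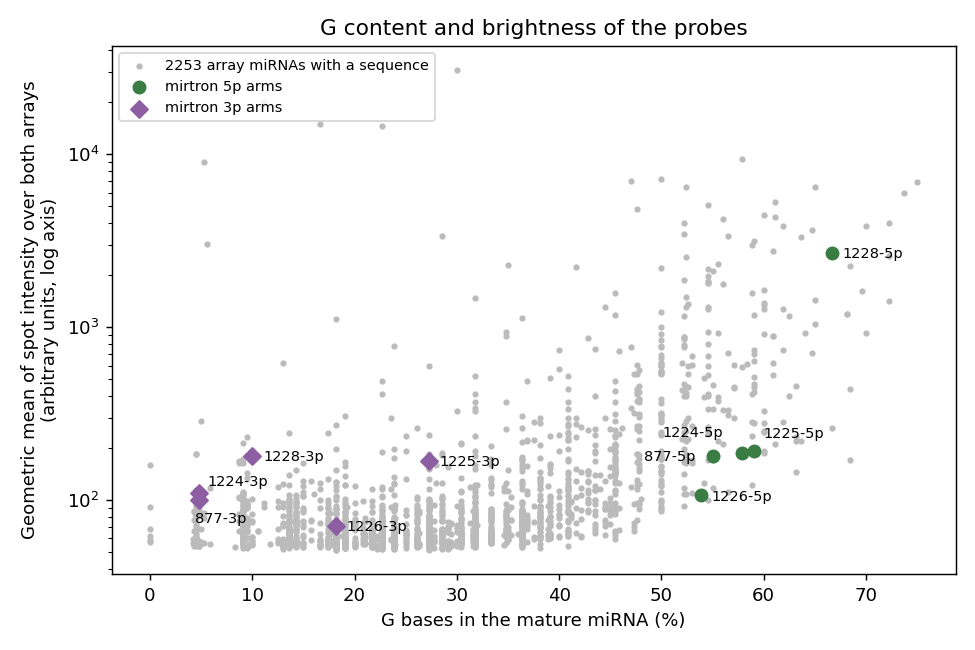
Share of G in the mature miRNA against the geometric mean of spot intensity over both arrays (log axis) for 2253 array miRNAs, with the mirtron 5p arms as green circles and the 3p arms as purple diamonds, each labelled with its number and arm. The 5p arms lie at 53.8% to 66.7% G, 4 of them in the lower part of the cloud there, and the 3p arms at 4.76% to 27.3% G, 4 of them in its upper part.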

How the data were processed

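Exosome RNA from 2 HuH-7 cultures was labelled with Cy5 and hybridised to 3D-Gene arrays, 1 per culture, per the labels' protocols. Per the file headers, the deposited scanner output gives a spot median intensity at 635 nm for 3200 spots per array, without background subtraction. The scanning software was not given in the sources used here. The column headed as background was not used. The authors also deposited a table of scaled intensity values. For 1585 of 1593 miRNAs above background on both arrays, and all 10 mirtron arms, its values were rebuilt from the scanner output to a relative tolerance of 1e-05, as BLANK-subtracted signal over the median of miRNAs above background, times 25. The 10 arms carry the same identifiers in both sources.

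The mean of all BLANK spots was subtracted from each spot median. Limits were the mean plus 2 SD of BLANK or No Probe spots without their top and bottom 5%. Each array was scaled to its median over miRNAs above the BLANK limit on both arrays. Alternatives used limma 3.58.1 in R 4.3.3, folds used ViennaRNA 2.7.2, and sequences came from RefSeq (GRCh38.p14). The number of arrays limits the precision. Calculations were tested on simulated data. The arms, lists, settings and the rule for named miRNAs (all 10 arms, further mirtrons above the No Probe limit, the 3 brightest of each later list and the 3 outermost arm shifts each way) were chosen with earlier results of these data known. miR-1227-3p and miR-1233-3p are named as exceptions after their values were seen.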

Additional observations from a re-analysis of the deposited data

How the results depend on the processing

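The count of arms higher by 2-fold or more in HuH-7-M, which was 1, became 0 without background correction, with an offset of 16, with normexp and an offset of 50 (alone or with quantile normalization) and on the Spike Control scale; under the other 8 alternatives, and with arms above the No Probe limit alone, it was 1. The count of lower arms was 0 under all of these. The arm shift of miR-1225 became -0.52 without background correction. That of miR-1228 became -0.29 after quantile normalization, -0.24 after cyclic loess and -0.27 with normexp, an offset of 50 and quantile normalization. Of 53 alternative arm shifts 49 moved by less than the single-spot SD, and of 129 alternative differences of single arms 107 did. Some of these could hardly move. Keeping only arms above the No Probe limit repeated the main arm shift of miR-877, miR-1224, miR-1225 and miR-1228. The trimmed BLANK mean, the BLANK median and the authors' values follow nearly the same processing as the main setting. Of the 22 exceptions among differences of single arms, 10 were on the Spike Control scale. The number of arms above the BLANK limit was 10 with a limit at 3 SD and with all BLANK spots, and the number above the No Probe limit was 9 with a limit at 3 SD. Over all measured miRNAs, the calls of 59 higher and 69 lower became 21 and 22 without background correction, 20 and 24 with normexp and an offset of 50, 29 and 36 with an offset of 16, 8 and 278 on the Spike Control scale and 7 and 27 with normexp and quantile normalization. With the No Probe mean subtracted, miR-1226-3p gave no value. Signal over background limits the dim arms most. No replicate could be left out, and no paired analysis was possible because each group has 1 array.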
